A study of Mus musculus with 27 samples.

Results

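Expression of 10 genes that build and supply the photoreceptor outer segment was followed across 27 arrays of sorted adult mouse retinal cells. The genes were Prph2, Rom1, Prom1, Rp1, Rp1l1, Tulp1, Aipl1, Unc119, Impg1 and Reep6. They were listed by name for this role, and the list uses no measured value, but earlier results of these data were known when it was made. They stand among 19301 genes that a probe set of the array (a group of probes summarised to 1 value) named alone. Each of the 10 had 1 probe set, and all 10 passed the filter for dim genes, which left 12441 genes for testing. Each array held RNA of 200 cells, and there were 9 groups of 3 arrays. Starburst amacrine cells release acetylcholine and GABA within the retina; they carried RFP from Rosa26-LSL-RFP, switched on by Cre from the Chat locus (129S6-Chat_tm1(cre)Lowl/J). Cones, the daylight photoreceptors, carried GFP from the transgene Tg(Chrnb4-EGFP)1Gsat. The groups held 0, 50, 75, 100, 150, 157, 183 or 200 cones, with starburst cells making up the rest, and a ninth group held amacrine cells marked by Tg(Arc-EGFP)194Gsat/Mmcd, included in the study as a control between batches. The 0, 50, 100, 150 and 200 cone groups formed a titration of which each replicate was sorted from a pool of several retinas, with different mice for each replicate. The labels give every group the same background, mixed from C57BL/6J and an FVB/N-Swiss Webster hybrid, and they state that founders of some lines carried a recessive photoreceptor degeneration mutation before backcrossing. Cell type, mouse line and reporter changed together, so they cannot be told apart, and in 200 sorted cells fewer cells of a type and less RNA per cell cannot be told apart either.

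The outer segment is the light-sensing end of a rod or cone, a modified cilium packed with membrane discs that is renewed throughout life. Its proteins are made in the inner segment and carried through the narrow connecting cilium, so disc-shaping proteins, an axoneme, chaperones and carriers of lipid-modified cargo all serve a compartment that amacrine cells do not have. Mutations in several of these genes are a known cause of inherited retinal degeneration.

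The promoter sequences of 4 of the genes are shown first, as examples. Photoreceptor genes are known to be bound by homeodomain factors of the Otx family, whose core motif contains the letters GATTA. How common the letters are is to be read from the counts over all windows below, not from the 4 printed ones. RefSeq windows of the 250 bases before the annotated start (GRCm38.p6) were found for 7 of the 10 genes, in 10 windows; Rp1, Rp1l1 and Reep6 had no window. GATTA was searched on both strands (TAATC on the other), and is written in capitals in the windows, which run 5′ to 3′ along the gene's strand. The Prph2 window lies at chr17:46910228-46910477 (+ strand), Rom1 at chr19:8929357-8929606 (− strand), Aipl1 at chr11:72037510-72037759 (− strand) and Impg1 at chr9:80465439-80465688 (− strand).
Prph2: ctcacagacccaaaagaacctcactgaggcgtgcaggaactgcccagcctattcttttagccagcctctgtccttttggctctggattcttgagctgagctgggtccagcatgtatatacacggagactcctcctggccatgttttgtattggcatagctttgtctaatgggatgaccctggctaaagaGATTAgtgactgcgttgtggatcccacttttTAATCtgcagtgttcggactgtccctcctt
Rom1: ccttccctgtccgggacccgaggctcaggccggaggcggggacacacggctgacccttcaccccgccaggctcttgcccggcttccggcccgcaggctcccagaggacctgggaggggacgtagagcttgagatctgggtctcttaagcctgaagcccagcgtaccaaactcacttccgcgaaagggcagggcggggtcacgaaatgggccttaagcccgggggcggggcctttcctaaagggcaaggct
Aipl1: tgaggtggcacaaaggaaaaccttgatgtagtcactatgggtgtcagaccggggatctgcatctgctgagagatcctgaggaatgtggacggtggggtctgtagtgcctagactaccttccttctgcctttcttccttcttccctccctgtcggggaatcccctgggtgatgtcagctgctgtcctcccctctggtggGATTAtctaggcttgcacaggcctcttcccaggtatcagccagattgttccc
Impg1: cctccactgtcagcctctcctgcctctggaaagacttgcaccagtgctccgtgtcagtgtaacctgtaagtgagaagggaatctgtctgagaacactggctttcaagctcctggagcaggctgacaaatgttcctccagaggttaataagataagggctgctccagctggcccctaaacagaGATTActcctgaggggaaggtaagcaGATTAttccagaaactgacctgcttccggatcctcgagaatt
Prph2 held the letters 61 and 30 bases before the start, Aipl1 52 bases before it and Impg1 68 and 42 bases before it. The Rom1 window had none, nor did that of Tulp1, which is not printed. GATTA stood in 5 of the 10 windows and in 19.84% of 32851 windows of this length. The 5 windows came from 5 of the 7 genes, a count by gene to which the share by window does not apply. Prom1 and Unc119 had several windows each and held the letters only in window 2. The longer form TAATCC, which overlaps it, stood in 2 of the 10 windows and in 6.252% of all. These letter matches describe the windows and say nothing of binding in the sorted cells.

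The values are log2 expression values, so a difference of 1 is a doubling. Array medians lay between 2.78 and 2.89, replicate arrays correlated at 0.935 to 0.979, and 0 pairs of arrays were identical. The labelled cell types were read against their markers. Slc18a3, the vesicular acetylcholine transporter, averaged 10.66 on starburst arrays, 3.16 on cone arrays and 3.08 on Arc arrays, while Chat, the acetylcholine-synthesising enzyme, averaged 4.08, 3.04 and 2.85. Opn1mw, the medium-wavelength cone opsin, averaged 4.64, 10.88 and 3.05 in the same order. The general amacrine list (9 genes) averaged 5.83, 3.78 and 5.92. The mean over 11 of 13 listed rod genes was 5.36 to 5.85 on starburst arrays, 6.32 to 7.40 on cone arrays and 4.58 to 5.05 on Arc arrays. Group means at or below the dim level of 2.83 were those of Samd7 on starburst arrays (2.52) and of Samd7 (2.31) and Pde6a (2.65) on Arc arrays.

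**Figure D1:**
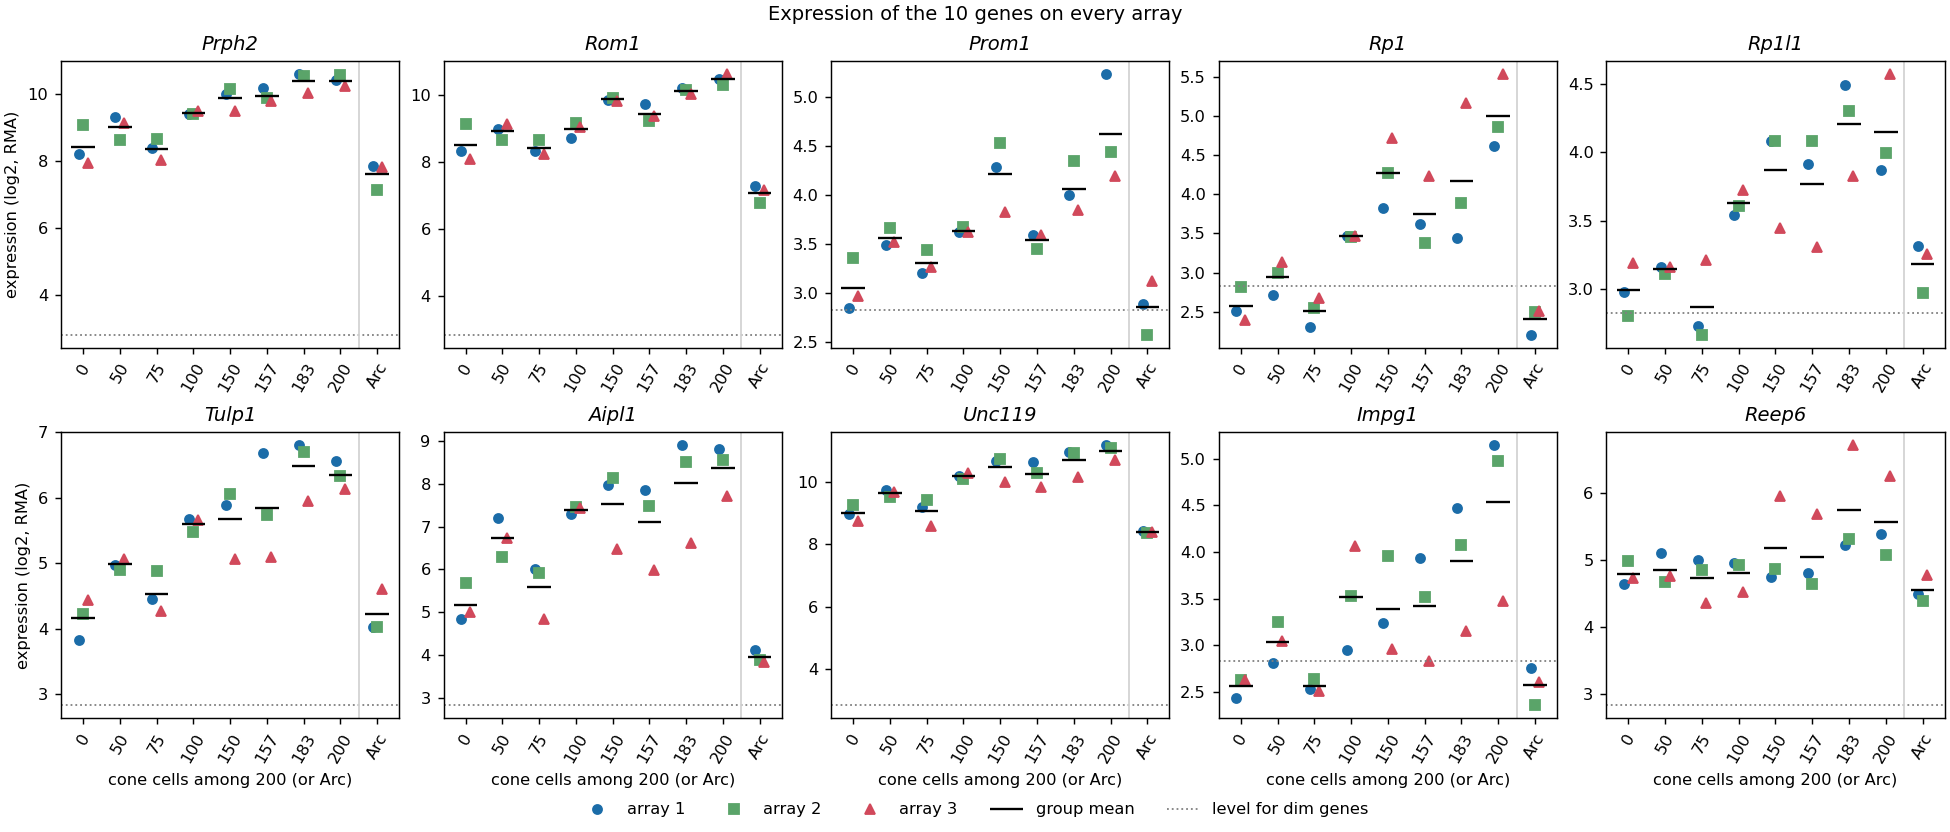
Expression (log2 RMA value, vertical axis, own scale for each gene) of the 10 genes on each of the 27 arrays, by number of cones among 200 cells or for Arc cells; coloured points are arrays 1 to 3, black lines group means, and the dotted line the level for dim genes (2.83). For example, Aipl1 means run from 5.18 without cones to 8.36 with 200 cones and lie at 3.95 in Arc cells, while in Reep6 array 3 stands above the others from 150 cones on.

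Pure cones carried more RNA than pure starburst cells from 9 of the 10 genes, by 2.22-fold (Rp1l1) to 9.08-fold (Aipl1). Among all tested genes 2.64% were called higher in cones, where a call needs a Benjamini-Hochberg adjusted p under 0.05 in limma and a log2 difference of at least 1. The gene not called was Reep6. The median difference of the 10 genes was 1.98, against -0.04 for all tested genes, and in all 10 genes every cone array lay above every starburst array, as in 11% of all genes. Of the 1048 genes called either way, 328 were higher in cones; after a further quantile normalization the split was 410 of 948. Genes listed as markers of other cells moved in the same comparison. Of 11 tested rod markers 3 were called higher, Sag, Pde6g and Gngt1 (median of the list 0.86). The other 8 were not called, among them Gnat1 (adjusted p = 0.19), Pde6b (0.163), Pde6a (0.219), Cnga1 (0.587) and Gnb1 (0.587). On array 3 of the 4 groups richest in cones (below), Sag and Pde6g fell, as most cone markers did. Gnat1, Cnga1 and Pde6b rose there. Whether the RNA of Sag and Pde6g came from rods was not tested. Of 6 bipolar markers 2 were called higher, Cabp5 (2.56, adjusted p = 4.87e-05) and Otx2 (1.71, adjusted p = 1.67e-05), a factor that photoreceptors also express. The bipolar markers Grm6, Trpm1 and Vsx1 differed by 0.08, 0.06 and -0.03. The part of rod or bipolar RNA in the differences of the 10 genes was not tested.

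Of the disc genes, Prph2 and Rom1 were above the dim level on all 27 arrays and Prom1 on 26. Prph2 encodes peripherin 2, a tetraspanin that bends the disc rim. It read 10.41, 10.56 and 10.23 on the 3 cone arrays and 8.21, 9.08 and 7.95 on the starburst arrays. The groups did not overlap, array 2 was the highest of the starburst arrays, and the difference was 1.99 ± 0.27 (SE, n = 3 per group; adjusted p = 1.84e-05). Rom1, its partner tetraspanin, read 10.50, 10.32 and 10.64 in cones and 8.33, 9.13 and 8.09 in starburst cells. Again array 2 was the highest without cones, and the difference was 1.97 ± 0.22 (adjusted p = 1.23e-06). Prom1, a cholesterol-binding membrane protein found where new discs form, read 5.24, 4.44 and 4.19 in cones against 2.84, 3.35 and 2.96 in starburst cells. Its cone arrays spread more widely, with array 1 on top, and the difference was 1.57 ± 0.22 (adjusted p = 3.02e-05). Array 2 was also the highest starburst array for the cone opsin Opn1mw, at 6.04 against 3.93 and 3.94, and for the rod transducin gene Gnat1, at 8.49 against 7.42 and 7.58.

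The axoneme genes were at the dim end of the array. Rp1, a microtubule-binding protein that lines up discs along the axoneme, read 4.62, 4.86 and 5.53 in cones and 2.51, 2.82 and 2.39 in starburst cells. All 3 starburst arrays lay below the dim level of 2.83, so that side of the comparison is near the floor of the array; the difference was 2.43 ± 0.32 (adjusted p = 1.65e-05). Rp1l1, its doublecortin-domain relative, read 3.87, 3.99 and 4.57 in cones and 2.98, 2.81 and 3.19 in starburst cells. The difference of 1.15 ± 0.23 (adjusted p = 0.00118) passed the fold threshold narrowly. It was 0.94 without array 3 of the cone group, under that threshold, and without array 2 of every group it was 1.14 with an adjusted p of 0.0528.

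The largest difference of the 10 genes was that of a chaperone gene. Aipl1, a co-chaperone needed to assemble the cyclic GMP phosphodiesterase, read 8.81, 8.55 and 7.72 in cones and 4.85, 5.68 and 5.005 in starburst cells. All cone arrays lay far above all starburst arrays, with array 3 the lowest in cones, and the difference was 3.18 ± 0.54 (adjusted p = 2.25e-04). Tulp1, a tubby-family protein needed to move opsins to the outer segment, read 6.56, 6.34 and 6.13 against 3.82, 4.22 and 4.43. Its difference was 2.19 ± 0.32 (adjusted p = 4.27e-05). Unc119, which binds the lipid tail of transducin alpha and carries it to the outer segment, read 11.20, 11.09 and 10.71 against 8.99, 9.28 and 8.74. Its arrays were tightly grouped, and the difference was 1.998 ± 0.25 (adjusted p = 6.40e-06).

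Reep6, an endoplasmic reticulum-shaping protein with a known rod isoform, was the exception. It read 5.38, 5.07 and 6.24 in cones and 4.64, 4.98 and 4.73 in starburst cells. The groups did not overlap, but cone array 3 stood apart, and the difference of 0.78 ± 0.37 (95% interval 0.01 to 1.56, adjusted p = 0.186) was not called. Without array 3 of every group it was 0.42 ± 0.19 (adjusted p = 0.225).

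Impg1, a proteoglycan of the matrix around the outer segments, read 5.15, 4.98 and 3.47 in cones and 2.43, 2.62 and 2.63 in starburst cells. All starburst arrays were below the dim level and cone array 3 lay far below the other cone arrays. The difference was 1.97 ± 0.39 (adjusted p = 0.00113); it was lost without array 1 of every group (1.60, adjusted p = 0.0559) or array 2 of every group (1.78, adjusted p = 0.0843), and was 2.54 ± 0.29 (adjusted p = 9.10e-05) without array 3.

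**Figure D2:**
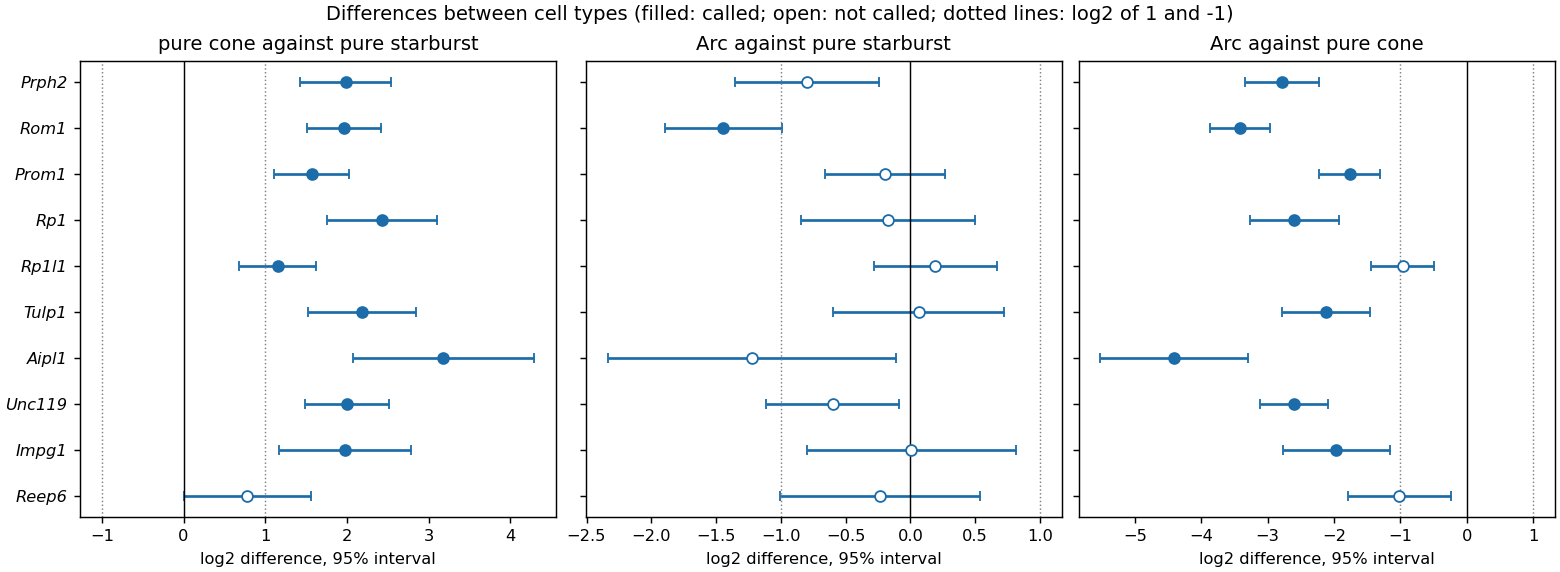
Log2 difference (horizontal axis) of the 10 genes in the comparisons of pure cone, pure starburst and Arc cells, with 95% intervals from the limma fit; filled points were called and open points were not. For cones against starburst cells all but Reep6 (0.78) are filled, for Arc against starburst cells only Rom1 (-1.44) is, and for Arc cells against cones all but Rp1l1 (-0.96) and Reep6 (-1.02) are.

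The 2 amacrine cell types differed less. Of the 10 genes, only Rom1 was called, lower in Arc cells, and 1.39% of all tested genes were called lower. Rom1 read 7.27, 6.77 and 7.18 in Arc cells. Every Arc array lay below the starburst arrays listed above, by 1.44 ± 0.22 (adjusted p = 1.15e-04, 2.72-fold). Without array 2 of every group the difference was -0.98, just short of the fold threshold.

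Another 3 genes had Arc arrays wholly below the starburst arrays without being called, making 4 of 10 with Rom1, against 10.5% of all tested genes. Aipl1 read 4.13, 3.89 and 3.83 in Arc cells, a difference of -1.23 ± 0.54 (95% interval -2.34 to -0.11, adjusted p = 0.248). Fitted on the arrays of these groups alone its adjusted p was 0.0273, and without array 3 of every group 0.0430, so the call depended on the spread used. Prph2 read 7.86, 7.15 and 7.84, a difference of -0.80 ± 0.27 (adjusted p = 0.0932), which was called at -1.03 (adjusted p = 0.0385) without starburst array 3 and was -0.47 (adjusted p = 0.469) without starburst array 2. Unc119 read 8.44, 8.37 and 8.39, a difference of -0.60 ± 0.25 (adjusted p = 0.211). The other 6 genes overlapped, with differences from -0.24 (Reep6) to 0.19 (Rp1l1) and intervals reaching from -1.01 to 0.81 at the widest. Rp1 and Impg1 were below the dim level on all 3 Arc arrays, as in starburst cells. The rod list moved with these genes, with 1 of 11 called lower and a median of -0.53. Of 6 bipolar markers 1 was called lower, Otx2 (-1.14, adjusted p = 0.00269), at a list median of -0.18. Of 11 tested cone markers 0 were called, at a median of -0.15, from -1.59 (Opn1mw) to 0.38 (Cngb3). Most of their 95% intervals were wide, as for Gnat2 (-2.46 to 0.97). For Opn1mw the interval was -2.81 to -0.37 and the arrays did not overlap. In each of the groups 5 of the 12 listed cone genes averaged at or below the dim level, so the missing calls do not show equal levels. The part of these lists in the differences was not tested.

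Against cones, Arc cells were lower in 8 of the 10 genes, with 2.51% of all tested genes called lower. This comparison shares the cone arrays with the first and the Arc arrays with the second, so it is no independent repeat of either. Of the 11 rod markers 5 were called lower too (median -2.05), and of 6 bipolar markers Cabp5, Otx2 and Pcp2. Grm6, Trpm1 and Vsx1 differed by -0.05, -0.30 and -0.08, near the floor of the array. Means of Grm6 and Trpm1 were below the dim level in both groups, and Vsx1 averaged 2.82 in Arc cells and 2.90 in cones. The part of the rod and bipolar markers was not tested. The differences were -4.41 ± 0.54 for Aipl1 (21.2-fold, adjusted p = 3.33e-06), -3.41 ± 0.22 for Rom1 (10.6-fold, adjusted p = 3.14e-10) and -2.79 ± 0.27 for Prph2 (6.89-fold, adjusted p = 1.26e-07). Rp1 and Unc119 each differed by -2.60, Tulp1 by -2.12, Impg1 by -1.97 and Prom1 by -1.76. Arc arrays lay wholly below cone arrays in all 10 genes, as in 11.6% of all tested genes. Rp1l1 read 3.32, 2.97 and 3.26 in Arc cells, and its difference of -0.96 ± 0.23 (adjusted p = 0.00443) fell short only of the fold threshold. It passed after a further quantile normalization (-1.08), without cone array 1 (-1.10), cone array 2 (-1.04) or Arc array 1 (-1.03), and without array 1 of every group (-1.17). Reep6 read 4.49, 4.39 and 4.77, and its difference of -1.02 ± 0.37 (95% interval -1.79 to -0.24) had an adjusted p of 0.0631. With the replicate number as a block it was 0.0429, with a stricter filter on dim genes 0.0467, after quantile normalization 0.0492 (at -1.29) and without cone array 2 0.0403 (at -1.26). The call for Impg1 was lost without array 2 of every group (-1.63, adjusted p = 0.0963). Over all tested genes 974 of 1286 calls were higher in Arc cells, and 684 of 1109 after the quantile normalization.

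Along the titration the same 9 genes rose with the share of cones. The slope is the fitted log2 change from 0 to 200 cones over the 15 titration arrays, and 2.55% of all tested genes were called rising. The pure groups are part of this fit, so it repeats much of the first comparison. Aipl1 rose most, by 2.86 ± 0.48 (adjusted p = 1.88e-04), then Rp1 by 2.47 ± 0.29 (adjusted p = 2.59e-06) and Tulp1 by 2.02 ± 0.28 (adjusted p = 2.42e-05). Rom1 rose by 1.96, Prph2 by 1.93, Unc119 by 1.92, Impg1 by 1.72, Prom1 by 1.52 and Rp1l1 by 1.21. The slope of Reep6 was 0.76 ± 0.33 (95% interval 0.07 to 1.45, adjusted p = 0.131). Impg1 lost its call without array 1 of every group (1.40, adjusted p = 0.0563) or array 2 of every group (1.49, adjusted p = 0.0937). Of the 1039 genes called either way 317 rose, and 403 of 923 after the quantile normalization.

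The order of the 9 group means was read gene by gene. Arc cells had the lowest mean in 7 genes; in Rp1l1 and Impg1 it was the group with 75 cones and in Tulp1 the pure starburst group. Pure cones had the highest mean in 7 genes, and the group with 183 cones in Rp1l1 (4.21 against 4.15), Tulp1 (6.48 against 6.34) and Reep6 (5.75 against 5.57), where the arrays of these groups overlapped. With the groups sorted by mean, Rom1 had the fewest overlaps: only 3 of its 8 neighbouring pairs of groups overlapped, all of them among the groups with 0 to 100 cones. Above these its group ranges ran from 9.23 to 9.75 at 157 cones, 9.84 to 9.93 at 150, 10.03 to 10.21 at 183 and 10.32 to 10.64 at 200, with no overlap. This order was not that of cone number. The Rom1 mean with 75 cones (8.42) lay below that with 0 (8.52), and with 157 (9.45) below that with 150 (9.88). Unc119 overlapped in 5 pairs, Prph2, Prom1, Tulp1 and Aipl1 in 6, Rp1, Rp1l1 and Impg1 in 7, and Reep6 in all 8.

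Next, groups that neighbour each other in cone number were compared. The 75, 157 and 183 cone groups were not part of the titration, so the steps 50 to 75, 75 to 100, 150 to 157 and 183 to 200 cross between the titration and these mixtures, and there the set of groups and the cone number cannot be told apart. In 7 steps limma called 0 of 70 differences of these genes, and 0.116% of 87087 gene and step pairs overall. At an unadjusted p under 0.05 there were 5, 4, 8, 3, 1, 2 and 2 of the 10 genes in the steps from 0 to 50 cones up to 183 to 200, in that order. Over all 12441 tested genes the counts were 741, 800, 1061, 904, 967, 999 and 1182, so the counts of 1, 2 and 2 in the last 3 steps were near that background. With the replicate number as a block 1 of the 70 was called, Unc119 from 75 to 100 cones (1.13, adjusted p = 0.0201, against 0.138 without the block). Rp1 from 183 to 200 cones was called without array 3 of the 183 cone group (1.34, adjusted p = 0.0174, against 0.84 and 0.362).

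From 50 to 75 cones the means of all 10 genes were lower with more cones, with differences from -1.15 (Aipl1) to -0.11 (Reep6), none of them called. Means were also lower in 56.1% of all tested genes and in 10 of 11 tested cone markers, at a median of -1.21 for the cone markers and -0.46 for the 10 genes. Aipl1 read 7.20, 6.29 and 6.73 with 50 cones and 6.01, 5.91 and 4.85 with 75. All 3 arrays with 75 cones were below those with 50, array 3 most so. Unc119 read 9.75, 9.53 and 9.69 with 50 cones and 9.19, 9.42 and 8.59 with 75. The same array was the lowest in the cone transducin gene Gnat2, at 5.67 against 8.54 and 8.93. Without it Aipl1 differed by -0.78 and Unc119 by -0.35, and Reep6 by 0.08. From 75 to 100 cones all 10 means were higher, at a median difference of 0.96. The number of cones in the labels was taken as given, and its part in the dip was not tested.

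**Figure D3:**
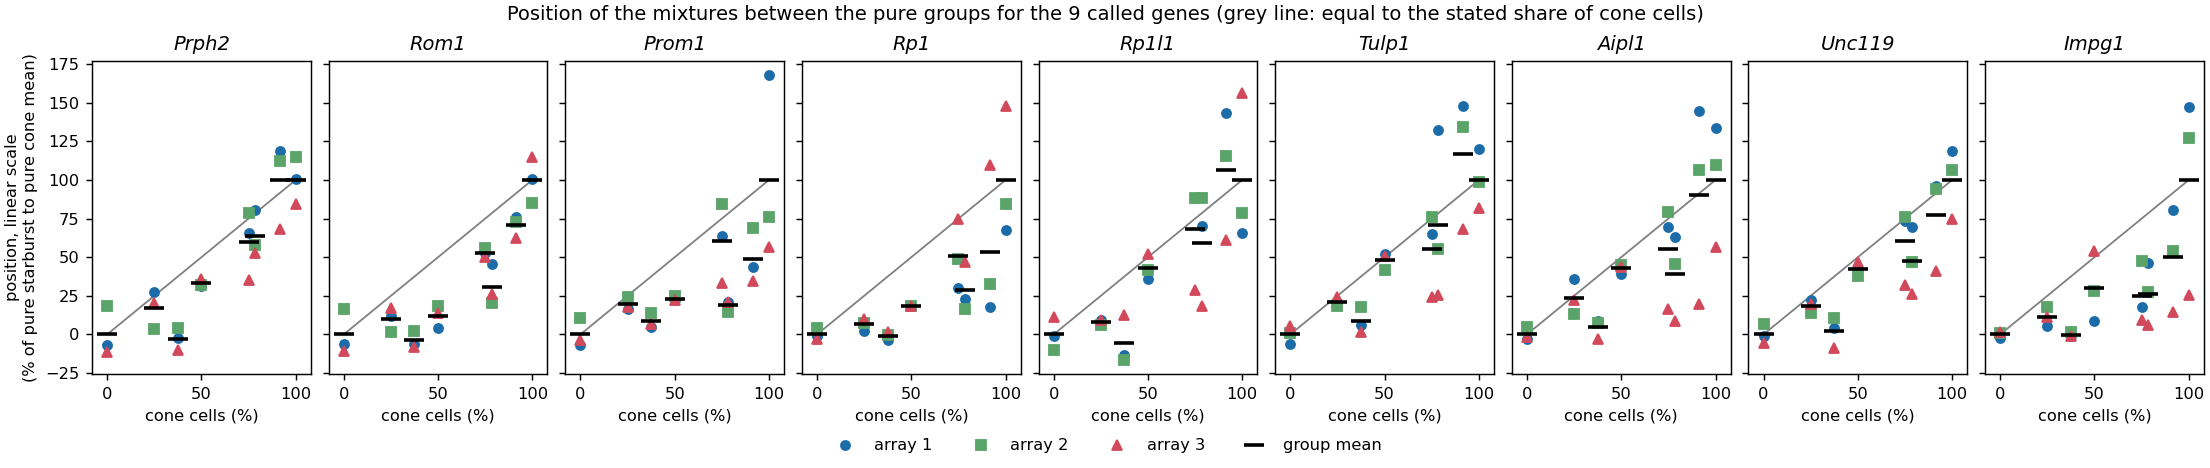
Position of each array on the linear scale (vertical axis, percent of the way from the pure starburst mean to the pure cone mean) against the stated share of cones (horizontal axis, percent) for the 9 genes called between the pure groups; coloured points are arrays, black bars group means, and the grey line marks equal values. Group means lie under the line except Prph2, Rp1l1 and Tulp1 at 91.5% cones.

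For the 9 called genes each array was placed on the linear scale, where RNA of mixed cells would add up, as a percentage of the way from the pure starburst mean to the pure cone mean. The median position was 17.0% in the group with 25% cones, -0.12% with 37.5%, 33.1% with 50%, 55.0% with 75%, 39.0% with 78.5% and 77.2% with 91.5%. Means lay below the stated share in every gene of the first 5 mixtures and in 6 of 9 genes of the last. In the equal mixture Tulp1 came nearest, at 48.1% ± 5.66 (SD, n = 3), then Rp1l1 at 43.2% ± 8.03, Aipl1 at 42.7% ± 3.23 and Unc119 at 42.4% ± 4.50. Rom1 stood at 12.2% ± 7.51 and Rp1 at 18.5% ± 0.24. The 3 equal-mixture arrays of Rom1, at 3.91%, 18.6% and 14.0%, all lay below the 3 arrays of Tulp1, at 52.0%, 41.6% and 50.7%. The positions share their end points, so an error in a pure group moves all mixtures of a gene at once. With the pure arrays of the same replicate number as end points, 7 of 54 positions moved by more than their SD. Impg1 in the equal mixture moved the most, from 30.2% to 81.6%, a mean that rests on array 3. There array 3 stood at 216%, against 7.68% and 21.2% on arrays 1 and 2. With the end points of the same replicate number 3 more means lay above the stated share. They were Aipl1 at 26.1% with 25% cones, Impg1 in the equal mixture (through array 3) and Rp1l1 at 85.6% with 75% cones.

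**Figure D4:**
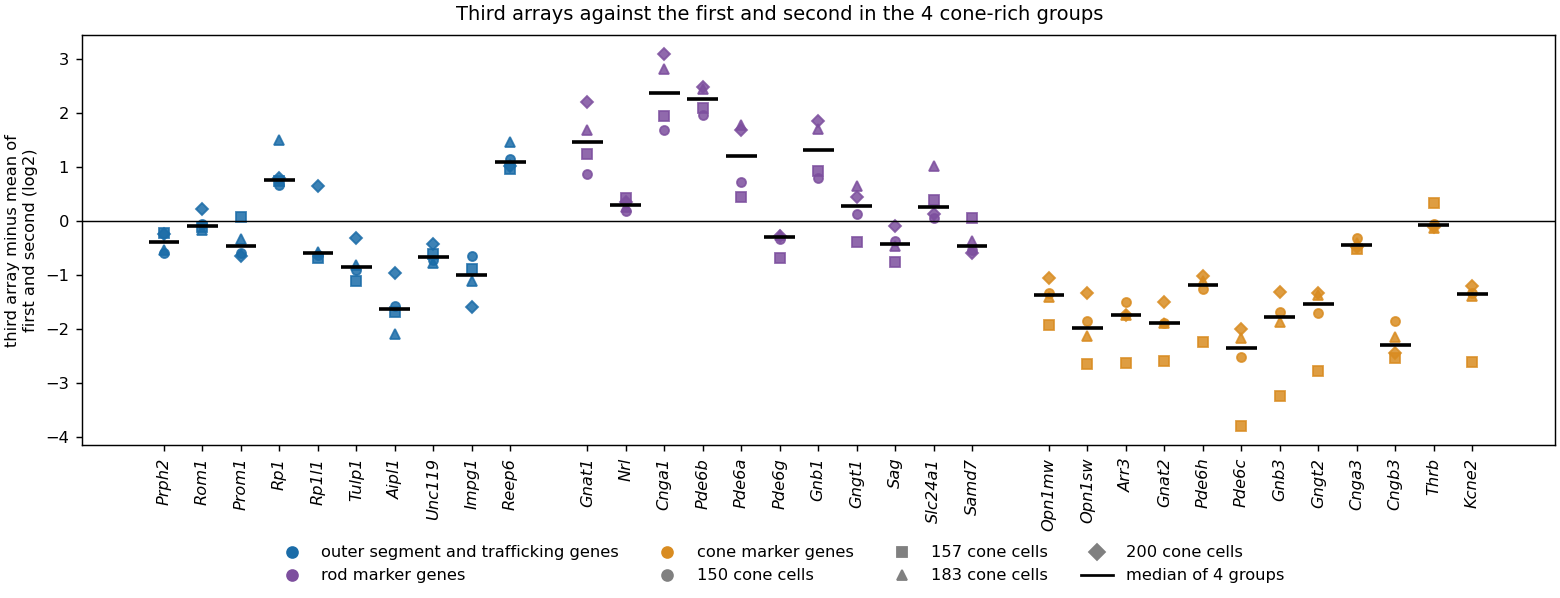
Array 3 minus the mean of arrays 1 and 2 (vertical axis, log2) in the groups with 150, 157, 183 and 200 cones, for the 10 genes, the rod markers and the cone markers; symbols mark the groups and black bars the median of 4. Rp1 and Reep6 lie above 0 in all 4 groups, as do Gnat1, Cnga1 and Pde6b, while Aipl1, Tulp1, Unc119, Prph2 and Impg1 lie below 0, as do all cone markers but Thrb. The rod markers Sag, Samd7 and Pde6g have medians below 0.

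In the 4 groups richest in cones array 3 differed from its replicates, and the 10 genes split. Rp1 and Reep6 were highest on array 3 in all 4 groups, as were 2.4% of all tested genes. Reep6 was higher there than the mean of arrays 1 and 2 by 0.96 to 1.45, and Rp1 by 0.67 to 1.499. Prph2, Tulp1, Aipl1, Unc119 and Impg1 were lowest on array 3 in all 4 groups, as were 6.44% of all tested genes. The differences lay between -2.10 and -0.96 for Aipl1 and between -1.597 and -0.65 for Impg1. In the group with 183 cones Aipl1 read 8.91, 8.51 and 6.61, and Reep6 read 5.22, 5.30 and 6.72. These shifts, in opposite directions, were larger than the distance between arrays 1 and 2. Rom1, Prom1 and Rp1l1 did not keep to either side, at medians of -0.09, -0.46 and -0.60.

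Rod and cone markers moved on the same arrays. Of the 11 rod markers, Gnat1, Nrl, Cnga1, Pde6b, Pde6a and Gnb1 were highest on array 3 in all 4 groups, at medians of 0.30 (Nrl) to 2.38 (Cnga1). Of the other rod markers Sag, Samd7 and Pde6g had negative medians there, at -0.42, -0.46 and -0.30, and Gngt1 and Slc24a1 positive ones, at 0.28 and 0.26. Of 12 cone markers 11 were lowest on array 3 in all 4 groups, at medians from -0.44 (Cnga3) to -2.35 (Pde6c). These markers were named after their values were seen, and their part in the shifts of the 10 genes was not tested. Without array 3 of every group the cone against starburst difference was 2.07 ± 0.22 for Rp1 (adjusted p = 6.32e-05), 3.42 ± 0.31 for Aipl1 (adjusted p = 1.66e-05) and 2.43 ± 0.27 for Tulp1 (adjusted p = 7.66e-05).

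**Figure D5:**
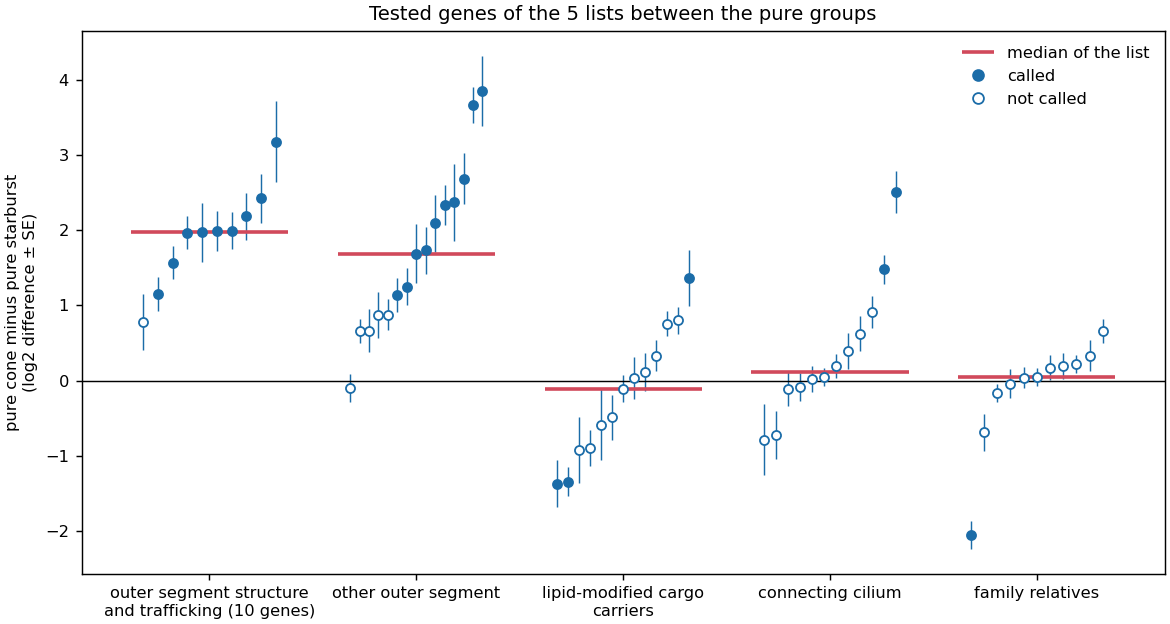
Log2 difference of pure cone minus pure starburst cells (vertical axis, ± SE) for every tested gene of 5 lists; filled points were called, open points were not, and red bars are list medians. The 10 genes (median 1.98) and the list named other outer segment (1.69) lie mostly above 0, and the carrier, cilium and relative lists lie around 0.

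Other genes were counted in lists chosen for their function. Over all tested genes 2.64% were called higher and 5.79% lower in cones. Of 18 other genes listed for the outer segment and matrix 15 were tested, and 10 were higher in cones, at a median of 1.69. The list holds genes not confined to the outer segment, such as Fam161a and Mpp4, so the count is not one of that compartment alone. The 3 with the largest difference were Rbp3, the retinoid-binding protein of the matrix (3.86 ± 0.47), Fam161a, a ciliary protein (3.67 ± 0.24), and Mpp4, a scaffold protein of photoreceptors (2.69 ± 0.34). Cngb1, the rod channel subunit (0.66 ± 0.29, adjusted p = 0.143), and Cdhr1, a cadherin at the base of the outer segment (0.88 ± 0.31, adjusted p = 0.0623), were not called.

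Carriers and small GTPases that many cell types use formed another list. Of 13 tested, 1 was higher and 2 were lower in cones, at a median of -0.11. These counts are too small to be read against the 2.64% and 5.79% of all tested genes. Pde6d, a carrier of prenylated proteins, was higher by 1.37 ± 0.37 (adjusted p = 0.0153). Arl2 (-1.37 ± 0.32), a small GTPase that releases carrier cargo, and Snx1 (-1.35 ± 0.19), an endosomal sorting protein, were lower. Arl3, the GTPase that frees cargo from Unc119, differed by 0.80 ± 0.18 (adjusted p = 0.00374), under the fold threshold, and Rab11a, a GTPase of recycling vesicles, by -0.90 ± 0.24 (adjusted p = 0.0133).

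Of 12 tested genes of the connecting cilium 2 were higher, Rpgrip1 (2.51 ± 0.28), which anchors RPGR there, and Cep290 (1.48 ± 0.20), a protein of the ciliary gate, and the median was 0.12. Iqcb1 (-0.79 ± 0.48, adjusted p = 0.320) and Kif3a (-0.73 ± 0.32, adjusted p = 0.148) were not called. Among 11 tested family relatives of the 10 genes 1 was lower in cones and 10 were not called, and the median was 0.05. Impg2, the relative of Impg1, was higher by 0.66 ± 0.16 (adjusted p = 0.00602), under the fold threshold. It averaged 2.91 in cones and 2.25 in starburst cells, near the floor of the array. The lists overlap, as Impg2 was also counted in the outer segment list and Unc119b in the carrier list. Reep5, the widely expressed relative of Reep6, was lower by 2.05 ± 0.19 (adjusted p = 9.54e-08), while Reep2 (-0.69 ± 0.24, adjusted p = 0.0621) and Reep1 (-0.04 ± 0.20, adjusted p = 0.931) were not called.

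Over the 9 group means the 10 genes ran closely together. Across their 45 pairs Pearson's r was 0.918 at the median, from 0.815 (Aipl1 with Reep6) to 0.989 (Prph2 with Unc119). No r among pairs of other genes was taken beside it. Some genes outside the 10 matched a member more closely than any member pair did, as given below. The titration groups share cell pools, whether the other groups do is not stated, and the r values describe the means only. Searched over the 12431 tested genes outside the 10, the most similar profile was that of Drd4 for Prph2 (r = 0.991), Rdh12 for Rom1 (0.982), Prkab1 for Prom1 (0.987), Rpgrip1 for Rp1 (0.9896) and Tmem159 for Rp1l1 (0.982). It was that of Ubtd1 for Tulp1 (0.998), Guk1 for Aipl1 (0.995), Tma7 for Unc119 (0.995), Osbpl3 for Impg1 (0.977) and Grina for Reep6 (0.985). Next in rank came Agpat5 and Glmn for Prph2, Lbh and Vtn for Rom1, Egflam and Kpna2 for Prom1, Ppef2 and Rora for Rp1, and Tcta and Mak for Rp1l1. For the others they were Rd3 and Slc38a3 (Tulp1), Sag and Cplx4 (Aipl1), Fabp12 and Glmn (Unc119), Uap1 and Ccdc107 (Impg1), and Pla2g5 and Gnb5 (Reep6). The rod arrestin gene Sag thus matched Aipl1 at r = 0.993, with means of 8.22 on starburst, 11.01 on cone and 7.30 on Arc arrays.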

How the data were processed

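The deposited values are log2 values that the authors made with RMA, which corrects for background, normalizes across arrays and summarises the probes of a set, in the package oligo under R 2.11.1, with build mm9, per the submitters' processing notes; arrays give no read depth, and precision is set by how many there are. Of 22347 probe sets, 19446 named 1 gene, 735 several and 2166 none, the last 2 kinds being left out. For genes with several probe sets the brightest was used. Genes above the median of all values (2.83) on at least 3 arrays were tested.

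All 27 arrays entered 1 fit in limma 3.58.1 (R 4.3.3; lmFit and eBayes) with a mean for each group and 18 residual degrees of freedom, checked on simulated data and adjusted by Benjamini-Hochberg over 12441 genes; tests were two-sided, and SE values come from this fit. Genes were called at an adjusted p under 0.05 and an absolute log2 difference of at least 1. The sample titles call every array a biological replicate. Where nothing further states separate mice (the groups with 75, 157 and 183 cones and the Arc cells), p-values measure only the spread between arrays. The 10 genes and the lists were chosen with earlier results of these data known. Named genes were all 10, the 3 called genes with the largest difference and up to 2 bright uncalled genes of each functional list, fixed cell markers, and the 3 closest profiles to each of the 10. Impg2 and Unc119b were named besides, as genes that stand in several lists. By the study's design, replicate numbers mark sorts from different mice for the titration; deviations of same-numbered arrays correlated at -0.03 to 0.23 there, with 3 of 30 pairs over 0.1, and up to 0.30 over the 8 starburst and cone groups, with 16 of 84 over 0.1. Because shared pools are not stated for every group, the fit had no block, and the block was an alternative.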

Additional observations from a re-analysis of the deposited data

How the results depend on the processing

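Of the 10 genes, 9 stayed called for cones against starburst cells with equal array medians, a further quantile normalization, no or a stricter filter on dim genes, probe set means, another eBayes setting, the replicate block and a fit on the compared arrays alone, and 7 to 9 when replicates were left out. Values of the 10 genes in the comparisons of cell types, the slope and the steps did not change sign where called. For Arc against starburst cells the count of called genes was 2 with only the arrays compared and 0 to 2 when replicates were left out, against 1. For steps between neighbouring mixtures it was 1 with the replicate block and 0 to 1 when replicates were left out, against 0. In sum, 4 of 170 alternative values lost a call for cones against starburst cells, 1 of 170 for Arc against starburst cells (3 gained one), 1 of 170 for Arc cells against cones (9 gained one) and 2 of 230 for the slope; the cause was not tested. The replicate block changed no call other than those of Reep6 and Unc119 given above. Rp1 and Impg1 lay below the dim level in all arrays of 3 groups each, so their differences there are limited by the floor of the array.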
